A study of Mus musculus with 6 samples.

Results

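The subunits of the mitochondrial respiratory chain were compared between bone marrow stem and progenitor cells that differ in their labelled dose of Erg, the gene of an ETS family transcription factor. Members were chosen by symbol from the array's probe table. They comprise the nuclear-encoded subunits of complexes I to V, recognised by the symbol starts Ndufa, Ndufb, Ndufc, Ndufs, Ndufv, Uqcr, Cox4i, Cox5, Cox6, Cox7, Cox8 and Atp5, together with Sdha, Sdhb, Sdhc, Sdhd, Cyc1 and Cycs. The rule found 84 genes among the 18193 genes that have a probe set with a single symbol. Complex I held 34 of them, complex II 4, complex III 9, complex IV 19 and complex V 17, and Cycs stood on its own as the carrier cytochrome c.

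The respiratory chain sits in the inner mitochondrial membrane. Complexes I and II pass electrons from NADH and succinate to ubiquinone, complex III passes them on to cytochrome c, and complex IV hands them to oxygen. Complexes I, III and IV pump protons as they work, and complex V, the ATP synthase, uses the return of the protons to make ATP. Quiescent hematopoietic stem cells are known for relying little on this route and for drawing on it more as they enter cycle and differentiate.

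All cells came from adult mice of the genotype Mx1Cre;Ergkd/+;R26Y on a mixed 129-B6 background. Each mouse thus carried 1 Erg knockdown allele, a Cre recombinase under the interferon-inducible Mx1 promoter, and a Rosa26-Stop-YFP reporter that marks cells in which Cre has acted. The knockdown-labelled population was YFP-negative, with a labelled Erg reduction of about 40%, and the restored-labelled population was YFP-positive, labelled as returned to the wild-type Erg level. Both populations of a mouse were LSK cells (lineage-negative, Sca-1 and c-Kit positive) of its bone marrow, so each of 3 mice (278, 279 and 281) gave 1 array per population. The dose of Erg given by the labels cannot be told apart from Cre action, or from which cells Cre spared, because the sort was on YFP. RNA was amplified with a NuGEN kit and hybridised to Affymetrix mouse genome arrays. The deposited value is a linear intensity per probe set, and intensities of different probe sets cannot be set against each other as levels.

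Erg itself was examined first, as a check of the labels. Its brighter probe set read 2970, 2754 and 2706 on the knockdown-labelled arrays of mice 278, 279 and 281, against 2731, 2901 and 2659 on the restored-labelled arrays. The groups overlapped, and the difference was 0.024 ± 0.080 (SE; limma adjusted p = 0.936; exact two-sided sign-flip permutation p = 0.75). Here and below a difference is the knockdown-labelled less the restored-labelled mean of log2(intensity + 16). Its dimmer probe set read 1820, 1331 and 1570 on the knockdown-labelled arrays, against 1859, 1542 and 1686 on the restored-labelled arrays. This probe set was lower in the knockdown-labelled population of every mouse, by -0.11 ± 0.087 (SE), with an exact sign-flip permutation p of 0.25, the smallest that 3 mice allow. Neither probe set bore out the labelled reduction, and which part of the transcript each reads was not analysed here, so every direction below is that of the labels.

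The arrays were similar in scale, with a mean intensity between 1031.2 and 1071.3 and between 20 and 35 probe sets at 0. An array value has no count behind it, so precision rests on how many arrays there are. The restored-labelled array of mouse 279 stood apart in RNA integrity: its 3' over 5' log2 ratio, averaged over the Actb and Gapdh control probe sets, was 0.71, against 0.47 to 0.54 on the other 5 arrays. Of 8 markers of the LSK gate, the 6 with a named probe set, Kit, Cd34, Flt3 and Procr among them, passed the filter on dim probe sets. Ly6a, the gene of Sca-1, has no named probe set here, so Sca-1 was not checked, and the neutrophil genes S100a8 and S100a9 were read at up to 15626 and 15541, so the absence of lineage cells was not borne out. In bulk samples such as these, fewer cells of a type and less RNA per cell cannot be told apart.

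Of the 84 members, 78 passed the filter, an intensity of 143. The members under it were Cox4i2, Cox7b2, Cox8b, Cox8c, Ndufa4l2 and Ndufb4. No member passed the test. With limma, mouse as a block and Benjamini-Hochberg adjustment over the 10824 genes tested, 0 of 78 members had an adjusted p below 0.05 (0.0% of all genes), and the smallest was 0.771. At an unadjusted p below 0.05 there were again 0 members, against 632 genes or 5.84% of all tested (1.88% lower and 3.96% higher in the knockdown-labelled population). The spread measured is that between 3 mice, after limma drew each gene's variance toward a value shared by all genes. A standard error (SE) is therefore not a member's own spread alone, and no member's SE was below 0.069.

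What the members shared was a small difference of one sign. The knockdown-labelled value was the lower one for 69 of 78 members, or 88.5%, against 50.0% of all genes tested. The median difference was -0.053 over the members, with an interquartile range of -0.087 to -0.019, and -0.00015 over all genes. The standard error of a single member had a median of 0.077, larger than that median difference. In 31 members (39.7%) the knockdown-labelled value was lower in all 3 mice, against a background of 12.4%, and in 0 members was it higher in all 3, against 19.8%. In 15 members (19.2%) the groups did not overlap with the knockdown-labelled arrays lower, against 5.08% of all genes, and in 0 members did they not overlap the other way, against 10.1%. Members of one pathway are measured on the same arrays and vary together, so these counts are a description.

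**Figure D1:**
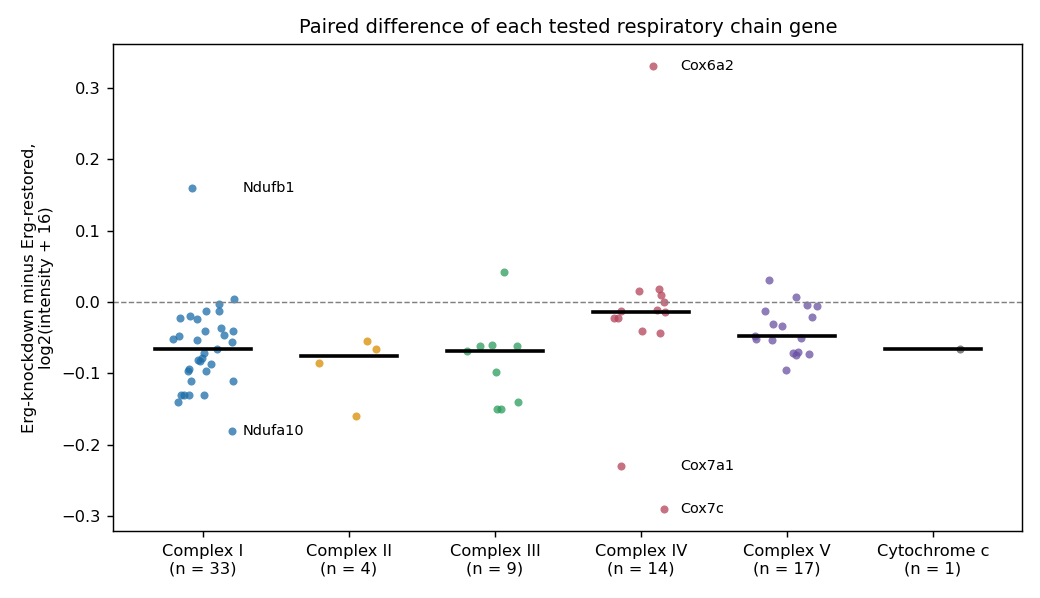
Each point is 1 of the 78 respiratory chain genes tested, placed by its difference, Erg-knockdown minus Erg-restored, on the log2(intensity + 16) scale (vertical axis) and by complex (horizontal axis, points spread sideways to be seen). Black bars are medians. Complexes I, II, III and V have medians between -0.076 and -0.048, complex IV has -0.014, and the genes far from the rest (Cox6a2, Ndufb1, Cox7a1, Cox7c) are dim or variable.

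The size of the shared difference depended on the mouse. The median over the members was -0.028 in mouse 278, where 60 of 78 were lower in the knockdown-labelled population. It was -0.13 in mouse 279, with 71 lower, and -0.00062 in mouse 281, with 40 lower. The all-gene medians were 0.031, -0.044 and 0.032 in these mice, so relative to all genes the members lay lower in each. Set against the mean of the other 5 arrays, the median member deviated by -0.033, -0.024 and -0.022 on the knockdown-labelled arrays of mice 278, 279 and 281, against 0.0026, 0.11 and -0.025 on the restored-labelled arrays. One array therefore stood out: the restored-labelled array of mouse 279 gave the highest of the 6 values for 62 members (79.5%), against 38.9% of all genes. It is also the array with the high 3' over 5' ratio, whose part in the result was not tested. In the 5 arrays without it, fitted with no mouse block, the median difference of the members was -0.018 and 64.1% of them were lower. Leaving out mouse 279 altogether gave -0.015 and the same share. These values are not relative to all genes. In mice 278 and 281 the all-gene medians were above 0, at 0.031 and 0.032, with 4475 and 4555 of 10824 genes lower.

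**Figure D2:**
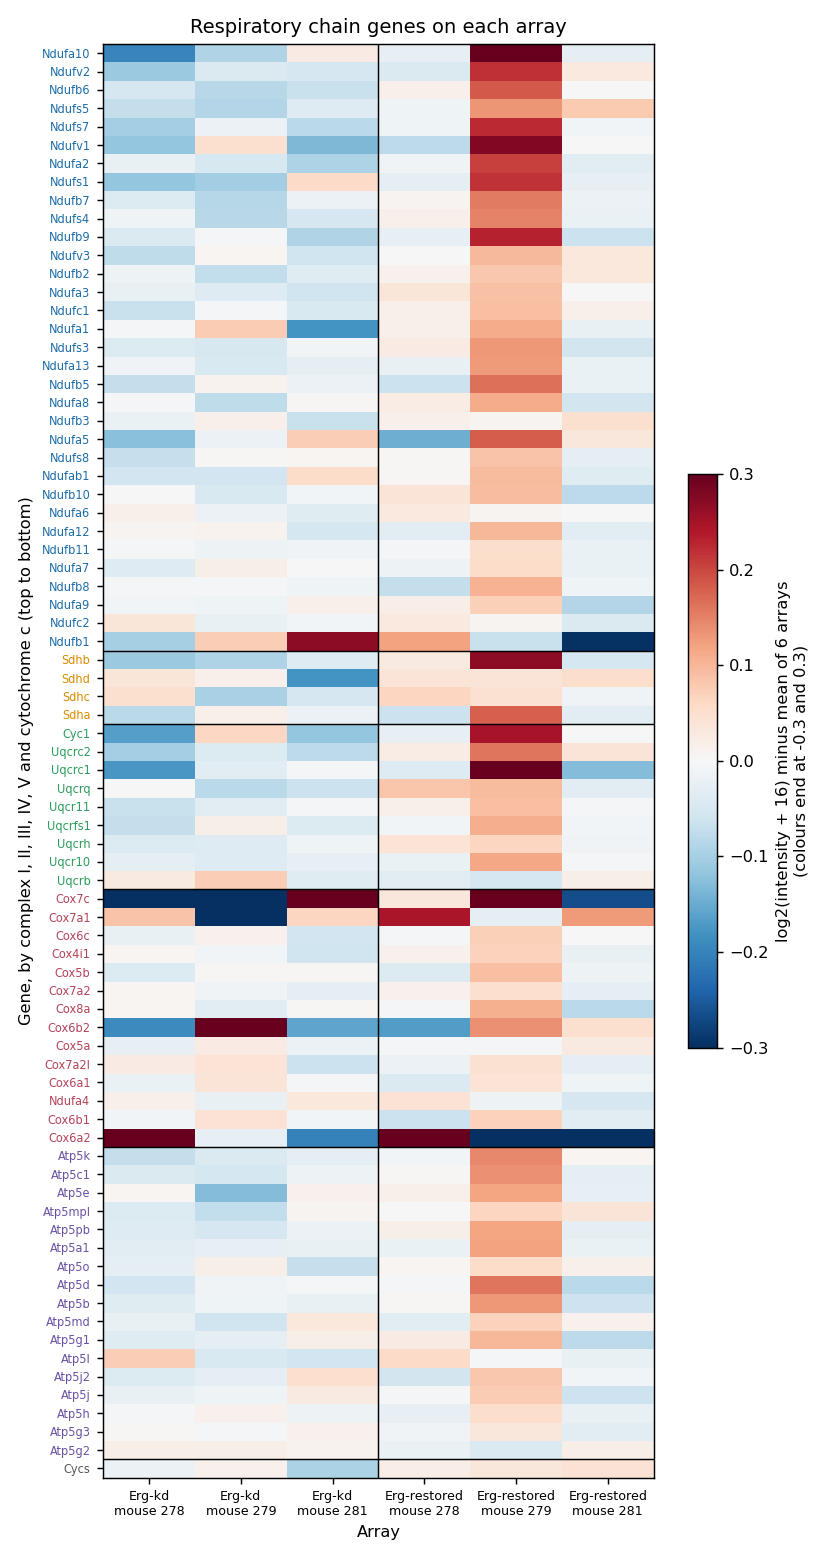
Rows are the 78 tested genes, grouped by complex (I, II, III, IV with Ndufa4, V and cytochrome c from top to bottom), and columns are the 6 arrays, Erg-knockdown (Erg-kd) left of Erg-restored. Colour gives log2(intensity + 16) minus the gene's mean over the 6 arrays, with colours ending at -0.3 and 0.3. The Erg-restored column of mouse 279 is the warmest, highest for 62 of 78 genes, while the other 5 columns are mostly pale.

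The other cell types that the gate could hold were read from marker lists. The summed intensity of the B and plasma cell list, 8 of 10 markers with a named probe set, ran between 13152 and 22030 on the knockdown-labelled arrays and between 8893 and 9911 on the restored-labelled arrays. These ranges do not overlap, and Cd79a, Vpreb3, Ebf1 and Pax5 were under the filter. The sum was carried by Ighm, with 10569, 11129 and 4046 on the knockdown-labelled arrays, against 3215, 1168 and 1438 on the restored-labelled arrays, and by Jchain. Mzb1 read 986, 905 and 523 on the knockdown-labelled arrays, against 242, 320.4 and 274 on the restored-labelled arrays. Cd79a, though under the filter, read 161, 171 and 138, against 110, 105 and 92. Vpreb3, Ebf1 and Pax5 overlapped between groups. Cd79b, a chain of the B cell receptor, went the other way in all 3 mice, with differences of -0.07, -0.081 and -0.18. The megakaryocyte list, with 7 of 7 markers, summed to between 8220 and 8817 on the knockdown-labelled arrays and to between 9184 and 12399 on the restored-labelled arrays. These ranges did not overlap either. The neutrophil list, with 7 of 8 markers, summed to 24110, 48759 and 28198 on the knockdown-labelled arrays of mice 278, 279 and 281, against 23434, 16517 and 43864 on the restored-labelled arrays. It was thus far higher in the knockdown-labelled population of mouse 279, where the members' difference was most negative and the restored-labelled array had the lowest sum, and it was lower in that of mouse 281, where the members' median was near 0. The erythroid, macrophage and T and NK cell lists had overlapping ranges. No marker passed an adjusted p of 0.05 with limma, and the part of these lists in the members' difference was not tested.

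Complex I, the NADH dehydrogenase and the entry point for electrons from NADH, had 31 of its 33 tested members lower in the knockdown-labelled population, with a median of -0.066. The median was -0.034 in mouse 278, -0.15 in mouse 279 and -0.0078 in mouse 281. The 6 tested subunits of the conserved core that hold the flavin and iron-sulfur clusters or flank them (Ndufs1, Ndufs3, Ndufs7, Ndufs8, Ndufv1 and Ndufv2), a group drawn after values were seen, had a median of -0.12 and were all lower. Their medians were -0.071 in mouse 278, -0.23 in mouse 279 and -0.019 in mouse 281, where 3 of 6 were lower, and the restored-labelled array of mouse 279 was the highest for 6 of 6. The 27 tested accessory subunits had a median of -0.053, with 25 lower.

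Ndufs7, which binds the cluster that gives electrons to ubiquinone, read 7015, 7445 and 7118 on the knockdown-labelled arrays, against 7468, 8796 and 7485 on the restored-labelled arrays. The highest knockdown-labelled value lay just under the lowest restored-labelled one, without overlap. The difference was -0.13 ± 0.079 (SE; limma adjusted p = 0.771). A dimmer Ndufs7 probe set overlapped between groups, with a difference of -0.092, and was higher in mouse 281, by 0.076. Ndufv2, the partner of the flavin-binding subunit, read 6169, 6465 and 6440 on the knockdown-labelled arrays, against 6469, 7757 and 6805 on the restored-labelled arrays. Its groups were parted by a narrow gap, and only the restored-labelled array of mouse 279 lay far from the rest. Ndufv1, the flavin-binding subunit that takes electrons from NADH, read 5331, 5975 and 5264 on the knockdown-labelled arrays, against 5475, 7009 and 5784 on the restored-labelled arrays. Here the knockdown-labelled array of mouse 279 exceeded 2 of the restored-labelled ones, so the groups overlapped, while the difference of -0.13 ± 0.079 (SE) had the same sign in all 3 mice.

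Ndufs5, an accessory subunit on the intermembrane side, had the smallest unadjusted p in complex I (0.160; limma adjusted p = 0.771). It read 3647, 3608 and 3729 on the knockdown-labelled arrays, against 3800, 4204 and 4046 on the restored-labelled arrays. The knockdown-labelled arrays lay close together and below all restored-labelled ones, with a difference of -0.13 ± 0.077 (SE). The other accessory subunits whose groups did not overlap were Ndufa3, Ndufb2, Ndufb6 and Ndufc1, with differences of -0.081, -0.083, -0.13 and -0.079. Ndufa10 had the most negative difference, -0.18 ± 0.12 (SE), with 4257, 4590 and 4970 on the knockdown-labelled arrays, against 4804, 6092 and 4799 on the restored-labelled arrays. It overlapped between groups, and its second probe set differed by 0.016. Ndufb1, a small membrane subunit and dim here, had the most positive difference, 0.16 ± 0.17 (SE). Its values of 250.4, 284 and 328 on the knockdown-labelled arrays, against 294, 256 and 216 on the restored-labelled arrays, crossed between mice. Ndufb11, the member of the complex with the highest intensity, differed by -0.019 ± 0.071 (SE).

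Complex II, succinate dehydrogenase, is also an enzyme of the citric acid cycle. All 4 subunits were lower in the knockdown-labelled population, with a median of -0.076. Sdhb, the iron-sulfur subunit, read 5242, 5304 and 5513 on the knockdown-labelled arrays, against 5766, 6821 and 5461 on the restored-labelled arrays. It was lower in mice 278 and 279 and slightly higher in mouse 281, with a difference of -0.16 ± 0.10 (SE; limma adjusted p = 0.771). Sdhd, a membrane anchor, read 6394, 6305 and 5502 on the knockdown-labelled arrays, against 6404, 6409 and 6467 on the restored-labelled arrays. There was no overlap, but the 3 restored-labelled arrays and 2 of the knockdown-labelled ones were nearly level. The difference of -0.086 ± 0.086 (SE) came mainly from the knockdown-labelled array of mouse 281. A dimmer Sdhd probe set overlapped between groups, with a difference of -0.049, and was higher in mouse 279, by 0.077. Sdha, the flavoprotein, differed by -0.055 ± 0.079 (SE) and Sdhc, the other anchor, by -0.066 ± 0.074 (SE).

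Complex III, the cytochrome bc1 complex, was the complex whose members kept the same sign most often: 7 of 9 were lower in all 3 mice (77.8%, against 12.4% of all genes), and 4 of 9 did not overlap between groups (44.4%, against 5.08% of all genes). Its median of -0.068 was made of -0.083 in mouse 278, -0.15 in mouse 279 and -0.032 in mouse 281, with 8 of 9 members lower in each. Whether it differs from the other complexes was not tested.

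Uqcrc2, a large scaffold subunit of the complex, read 6790, 7090 and 6899 on the knockdown-labelled arrays, against 7409, 8146 and 7484 on the restored-labelled arrays. Every knockdown-labelled array lay below every restored-labelled one, and the difference was -0.15 ± 0.071 (SE), a change of -9.72% with a 95% interval that runs between a fall of 21.3% and a rise of 3.63% (limma unadjusted p = 0.108, adjusted p = 0.771). A second Uqcrc2 probe set differed by -0.075. Cyc1, the cytochrome c1 heme subunit that passes electrons to cytochrome c, read 4961, 5805 and 5134 on the knockdown-labelled arrays, against 5468, 6604 and 5558 on the restored-labelled arrays. Mouse 279 was the highest in both populations, so the groups overlapped, while within each mouse the knockdown-labelled value was lower, by -0.15 ± 0.071 (SE). Uqcrc1, the partner scaffold, differed by -0.14 ± 0.13 (SE), but by -0.0063 on average in mice 278 and 281 alone. Uqcrfs1, the Rieske iron-sulfur subunit, differed by -0.062 ± 0.070 (SE).

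The small subunits Uqcr10, Uqcr11 and Uqcrh did not overlap between groups, by narrow margins. Uqcr11 read 4607, 4718 and 4815 on the knockdown-labelled arrays, against 4878, 5138 and 4815 on the restored-labelled arrays. In mouse 281 the populations were level to within rounding, which shows how little separation the absence of overlap can require. Uqcrb, a subunit near the ubiquinone site and the member of complex III with the highest intensity, went the other way, with 11248, 11620 and 10772 on the knockdown-labelled arrays, against 10813, 10662 and 11185 on the restored-labelled arrays. Its groups overlapped, and the difference was 0.042 ± 0.078 (SE). Of its 2 probe sets, the dimmer differed by -0.051.

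Cycs, cytochrome c, carries electrons between complexes III and IV and triggers caspases when it leaves the mitochondrion. It read 6741, 6881 and 6390 on the knockdown-labelled arrays, against 6924, 6988 and 7036 on the restored-labelled arrays. The groups did not overlap, and the knockdown-labelled array of mouse 281 was the lowest, with a difference of -0.066 ± 0.074 (SE; limma adjusted p = 0.819). Its 2 other probe sets differed by -0.028 and -0.065.

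**Figure D3:**
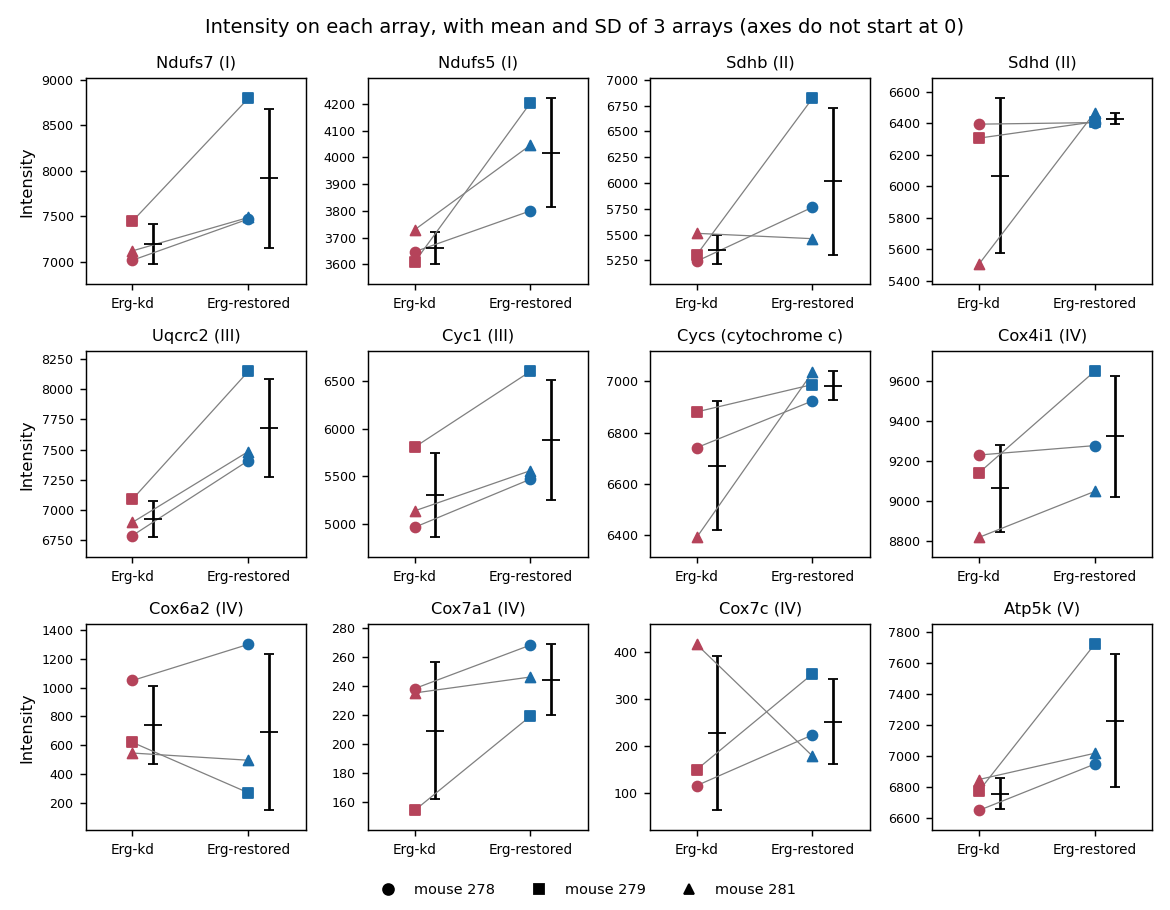
Intensity (vertical axes, linear, not starting at 0) of 12 respiratory chain genes on the Erg-knockdown (Erg-kd, left) and Erg-restored (right) arrays. Symbols mark mice 278, 279 and 281, lines join the populations of 1 mouse, and bars give the mean and SD of 3 arrays. Uqcrc2 and Ndufs5 have every Erg-knockdown array below every Erg-restored one, while Cox7c and Cox6a2 have lines that cross.

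Complex IV, cytochrome c oxidase, reduces oxygen. It had the smallest median, -0.014, with 10 of its 14 tested members lower and 0 without overlap between groups. This median rests on the brightest probe set of each gene. Dimmer probe sets were more negative for Cox5b (-0.097, -0.092 and -0.087, against -0.023) and Cox6c (-0.13, against -0.044). They were near 0 for Cox5a (-0.0057 and 0.0026) and Cox7a2l (-0.0024 and 0.028). Cox4i1, a regulatory subunit and the common form outside lung, read 9231, 9141 and 8819 on the knockdown-labelled arrays, against 9278, 9649 and 9049 on the restored-labelled arrays. The groups overlapped, and the difference was -0.041 ± 0.070 (SE), with a 95% interval of -0.24 to 0.16.

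Several subunits of complex IV exist as paired isoforms, one widespread and one restricted to heart, skeletal muscle, lung or testis. The widespread forms Cox6a1, Cox6b1, Cox7a2 and Cox8a passed the filter and differed by between -0.023 and 0.018 on their brightest probe sets. On their dimmer probe sets past the filter they differed by -0.043, -0.065, -0.023 and -0.0058, so the sign turned for Cox6a1 and Cox6b1. Of the restricted forms, Cox4i2 (lung), Cox7b2, Cox8b and Cox8c were under the filter on the mean of all arrays, with no value above 132. Cox6a2, the heart and muscle form of subunit 6a, passed it, with 1050, 620 and 546 on the knockdown-labelled arrays, against 1301, 269.8 and 496 on the restored-labelled arrays. It varied more between mice than between populations, and the difference of 0.33 ± 0.31 (SE) changed to -0.085 without mouse 279. A second Cox6a2 probe set also crossed between mice, with a difference of 0.24. Cox6b2, the testis form of subunit 6b, read 3394, 4876 and 3475 on the knockdown-labelled arrays, against 3454, 4269 and 4012 on the restored-labelled arrays. Mouse 279 was the highest in both populations, and the difference was -0.013 ± 0.11 (SE).

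Cox7a1, the heart and muscle form of subunit 7a, was dim and had the smallest unadjusted p of the 78 members past the filter (0.105; limma adjusted p = 0.771). It read 238, 154 and 235 on the knockdown-labelled arrays, against 268, 219 and 246 on the restored-labelled arrays. It was lower within each mouse, by -0.23 ± 0.11 (SE), while the groups overlapped. Cox7a2l, a relative of subunit 7a that joins complexes III and IV into supercomplexes, differed by -0.00051 ± 0.071 (SE). Cox7c had the most negative difference of the 78 members past the filter, -0.29, with an SE of 0.52. It read 115, 149 and 416 on the knockdown-labelled arrays, against 223, 353 and 178 on the restored-labelled arrays, so mice 278 and 279 went one way and mouse 281 the other. Without mouse 281 its difference was -1.01 (limma adjusted p = 0.628), and without mouse 279 it was 0.15.

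Ndufa4, named for complex I and known as a subunit of complex IV, differed by 0.015 ± 0.073 (SE). Its paralogue Ndufa4l2, a gene induced by hypoxia, was under the filter. It read 61.6, 53.4 and 52.9 on the knockdown-labelled arrays, against 79.8, 80.9 and 69.4 on the restored-labelled arrays. The groups did not overlap, and with no filter on dim probe sets the difference was -0.36 (limma unadjusted p = 0.0211, adjusted p = 0.831).

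Complex V, the ATP synthase, had 15 of 17 members lower, with a median of -0.048 made of -0.017 in mouse 278, -0.13 in mouse 279 and 0.014 in mouse 281. The 5 subunits of its catalytic F1 head (Atp5a1, Atp5b, Atp5c1, Atp5d and Atp5e) were all lower in the fit, by between -0.074 and -0.048. Their medians were -0.040 in mouse 278, -0.17 in mouse 279 and 0.039 in mouse 281, where 1 of 5 was lower, and the restored-labelled array of mouse 279 was the highest for 5 of 5. Without mouse 279, Atp5d differed by 0.011 and Atp5e by 0.015, and without its restored-labelled array Atp5b differed by 0.005. Atp5a1, the alpha subunit, read 10941, 11015 and 11027 on the knockdown-labelled arrays, against 11043, 12167 and 11035 on the restored-labelled arrays. No value overlapped between groups, yet 5 of the 6 arrays lay within a narrow band. Only the restored-labelled array of mouse 279 was higher, giving a difference of -0.053 ± 0.076 (SE; limma adjusted p = 0.849). The dimmer Atp5a1 probe sets differed by 0.0021, with overlap, and by -0.11. Atp5b, the catalytic beta subunit, differed by -0.048 ± 0.079 (SE), with 10121, 10287 and 10230 on the knockdown-labelled arrays, against 10409, 11372 and 9950 on the restored-labelled arrays. Its groups overlapped.

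Atp5k, the small membrane subunit e, had the most negative difference of the complex. It read 6650, 6774 and 6849 on the knockdown-labelled arrays, against 6948, 7719 and 7018 on the restored-labelled arrays. The groups did not overlap, and the difference was -0.095 ± 0.077 (SE; limma adjusted p = 0.787). The 3 genes of the proton-carrying c ring encode one mature subunit behind different import sequences. Atp5g1 differed by -0.031 ± 0.084, Atp5g2 by 0.031 ± 0.070 and Atp5g3 by 0.0067 ± 0.071 (SE). A dimmer probe set turned the sign for Atp5g1 (0.26) and for Atp5g2 (-0.25), a disagreement chosen for mention after its values were seen. Atp5h, in the peripheral stalk and with the highest intensity of the complex, differed by -0.0041 ± 0.070 (SE).

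**Figure D4:**
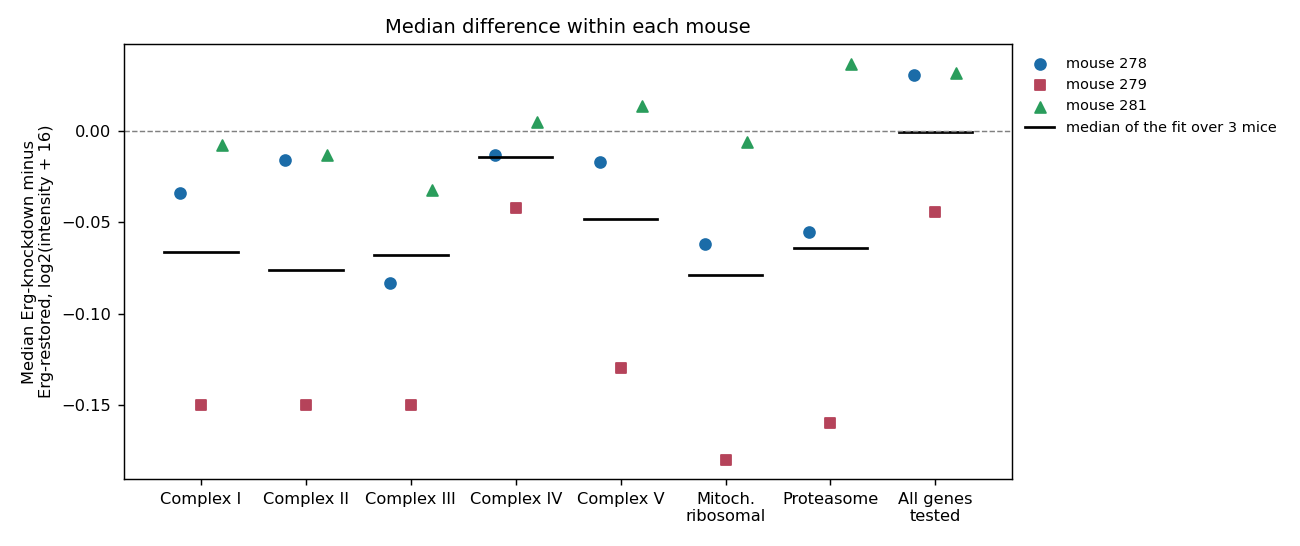
Median difference, Erg-knockdown minus Erg-restored on the log2(intensity + 16) scale (vertical axis), in mice 278, 279 and 281 (symbols) and in the fit over all 3 (black bars), for each complex, the mitochondrial ribosomal protein genes, the proteasome genes and all genes tested. Mouse 279 is the lowest in every column, and the mitochondrial ribosomal (-0.079) and proteasome (-0.064) medians lie beside those of complexes I to III.

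The other probe sets of the members gave a similar median difference, although they share the arrays. Of the members, 47 had several named probe sets past the filter, and in 34 of these all had the same sign. The 71 probe sets other than the brightest had a median difference of -0.053, with 61 lower and 0 at an unadjusted p below 0.05 with limma. In mice 278, 279 and 281 their medians were -0.026, -0.18 and -0.0033. Absence of overlap was read from the brightest probe set of each gene. The next brightest overlapped between groups for Ndufb2, Ndufb6, Ndufc1, Ndufs7, Ndufv2, Sdhd, Uqcrc2, Uqcrh, Cycs and Atp5a1. It did not overlap for Ndufa3, Uqcr10 and Atp5k.

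The precision limits what could have been seen. The 95% interval of the difference lay within 1.5-fold either way for 75 of 78 members, against 74.9% of all genes. The members outside 1.5-fold were Cox6a2, Cox7c and Ndufb1.

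The small negative difference was also present in other housekeeping groups. The 76 mitochondrial ribosomal protein genes, which make the ribosomes that translate the chain's mitochondrially encoded subunits, had 69 lower and a median of -0.079. Of 39 tested proteasome subunit genes, which encode the cytosolic protease and belong to no mitochondrial complex, 33 were lower, with a median of -0.064. Both groups followed the same order of mice, with medians of -0.18 and -0.16 in mouse 279, and -0.0059 and 0.037 in mouse 281. Of the other 1334 genes with a probe set in the upper 5% by intensity, 45.1% were lower, with a median of 0.012.

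The wider pathway was read from lists of genes outside the chain. With limma 0 of their 76 tested genes passed an adjusted p of 0.05, and 0 were lower and 2 higher at an unadjusted p below 0.05, against 1.88% lower and 3.96% higher of all genes, so these counts do not exceed the background. Of 51 tested assembly factors, which build the complexes without staying in them, 41 were lower, with a median of -0.056. That median was -0.053 in mouse 278, -0.13 in mouse 279 and 0.011 in mouse 281, where 25 of 51 were lower. For complex I 12 of 15 were lower in the fit but 5 of 15 in mouse 281, and 1 of 15 (6.67%, against 12.4% of all genes) was lower in all 3 mice. For complex IV 18 of 21 were lower. Foxred1, Cs and Tfam are named here after their values were seen. Foxred1, the complex I assembly factor that was lower in all 3 mice, read 693, 710.3 and 681 on the knockdown-labelled arrays, against 776, 831 and 745 on the restored-labelled arrays. It did not overlap between groups, with a difference of -0.17 ± 0.072 (SE; limma adjusted p = 0.771). Of 12 tested citric acid cycle enzymes, 10 were lower, with a median of -0.045, but 5 of 12 in mouse 281 and 0 in all 3 mice. Cs, citrate synthase, differed by -0.035 ± 0.075 (SE).

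The 13 transcriptional regulators of these genes were split, with 6 lower and 7 higher and a median of 0.049. The 2 that reached an unadjusted p below 0.05 were higher, and are named here after their values were seen. Gabpa, the DNA-binding ETS subunit of nuclear respiratory factor 2, read 2149, 1998 and 2079 on the knockdown-labelled arrays, against 1720, 1310 and 1871 on the restored-labelled arrays. The groups did not overlap, with a difference of 0.36 ± 0.12 (SE; limma unadjusted p = 0.0374, adjusted p = 0.771). Ppargc1a, the coactivator PGC-1 alpha that drives mitochondrial gene transcription, read 334, 299.7 and 280.4 on the knockdown-labelled arrays, against 128, 171 and 123 on the restored-labelled arrays. It did not overlap either and was higher within each mouse, by 1.04 ± 0.13 (SE; limma unadjusted p = 0.00133, adjusted p = 0.771). Nrf1, nuclear respiratory factor 1, crossed between mice, with a difference of 0.25 ± 0.21 (SE). Tfam, which packages and transcribes mitochondrial DNA, differed by -0.12 ± 0.12 (SE), with only the restored-labelled array of mouse 279 apart from the rest.

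Promoters of respiratory chain genes are known to carry sites for ETS factors and for nuclear respiratory factor 1, and ERG is itself an ETS factor. RefSeq windows (assembly GRCm38.p6) running from 250 bases before to 50 bases after the gene start were matched for 68 of the 84 members. Both strands were searched for the ETS core CCGGAAG and for the palindromic core of nuclear respiratory factor 1, which can share at most 1 letter with it. The ETS core was found in 17 of 68 members, against 9.93% of the 27025 genes with a window, and the other core in 15 of 68 (22.1%), against 5.19%. That background holds every gene with a window, tested on these arrays or not, and base composition was not matched. Whether the excess is particular to the chain was not tested. Members holding either numbered 28, and 4 held both (Sdhd, Atp5k, Atp5h and Cox6a1). The 150 bases before the start are shown for 4 of the genes whose groups did not overlap and that hold a core. Ndufb6 and Uqcrh, which hold an ETS core and did not overlap either, are not shown. Cores are in capitals, 7 letters for the ETS core and 10 for the other. The stretches are chr9:50603850-50603999 for Sdhd, chr10:80406822-80406971 for Uqcr11, chr4:123718187-123718336 for Ndufs5 and chr5:108434400-108434549 for Atp5k, all read from the minus strand, 5′ to 3′.
Sdhd: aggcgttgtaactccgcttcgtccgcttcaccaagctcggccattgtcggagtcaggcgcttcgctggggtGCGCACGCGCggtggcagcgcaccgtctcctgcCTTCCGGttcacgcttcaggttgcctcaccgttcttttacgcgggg
Uqcr11: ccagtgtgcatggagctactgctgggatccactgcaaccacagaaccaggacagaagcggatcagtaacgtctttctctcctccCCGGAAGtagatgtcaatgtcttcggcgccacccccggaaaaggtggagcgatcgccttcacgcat
Ndufs5: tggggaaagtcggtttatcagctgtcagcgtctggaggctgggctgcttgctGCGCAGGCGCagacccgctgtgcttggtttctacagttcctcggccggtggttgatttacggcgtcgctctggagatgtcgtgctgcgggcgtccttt
Atp5k: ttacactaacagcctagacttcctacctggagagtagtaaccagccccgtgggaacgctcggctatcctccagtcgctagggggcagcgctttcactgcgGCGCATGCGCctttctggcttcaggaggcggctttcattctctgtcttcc

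In Sdhd the ETS core lay 46 to 40 bases before the start, on the opposite strand, and the other core 79 to 70 bases before it. In Uqcr11 the ETS core lay 66 to 60 bases before the start, in Ndufs5 the other core 98 to 89 bases before it, and in Atp5k 50 to 41 bases before it. The ETS core of Atp5k lies after the start and outside the stretch shown. A match of letters is not a site. The median difference of the 17 tested members with an ETS core was -0.062, beside -0.051 for the 48 without, and that of the 14 tested members with the other core was -0.052, beside -0.050 for the 51 without. These medians were close to each other, and no test was made between them.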

How the data were processed

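RNA of 6 sorted LSK populations was amplified (NuGEN Ovation V2) and hybridised to Affymetrix mouse genome arrays, per the labels' protocols. The authors deposited 1 linear intensity per probe set and array; their summary, background and normalization steps are not given in the sources used here. Of 45101 probe sets, 64 controls were left out, and 34945 carry a single symbol in the probe table.

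Intensities were taken to log2(value + 16), so differences of dim genes are understated. Probe sets with a mean below the median (143) were filtered out, and each gene was read from its brightest named probe set, which left 10824 genes. All 84 member gene identifiers matched the mouse gene table (GRCm38.p6). 10 probe sets annotated to a gene with such a symbol and to another gene were not used, among them those that Ndufb4 and Ndufs5 share with related copies. Ndufa11 and Ndufs6 have only such probe sets in the table and so are not among the members. The test was lmFit followed by eBayes (limma 3.58.1, R 4.3.3), with mouse as a fixed block and Benjamini-Hochberg adjustment across the genes tested. Figures used matplotlib 3.10.9 (Python 3.11.15, pandas 2.3.3, numpy 2.4.6).

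The pairing comes from the labels. Deviations from group means correlated between the arrays of 1 mouse at 0.44 (278), -0.17 (279) and -0.29 (281), while those of different mice reached 0.41 (281 knockdown-labelled with 279 restored-labelled) and 0.34 (279 with 281). For mice 279 and 281 the values thus do not bear out the pairing, and the block was kept because the labels state a shared animal.

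On 5 simulated data sets with 200 of 10824 genes changed, recovery was 28% at a 1.5-fold change, 83.2% at 2-fold and 97.2% at 4-fold, with 9.2 false calls on average. Equal numbers of genes were changed by 1.5-, 2-, 4- and 8-fold, and noise was drawn independently for each gene. The adjusted threshold depends on how many genes change, so these rates do not carry over to the arrays, where 0 genes were called.

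The members and lists were chosen with earlier results of these data known. Genes were named by rule: in each complex the 2 with the smallest p, the most positive, the most negative and the brightest, every member whose groups do not overlap and that has the same sign in all 3 mice, and all isoform families. Core subunit groups and the comparison by brightness were added after values were seen. Protein sequences were not used here.

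Alternatives were other values added (1 or 64) or a floor at 16, no filter or an upper 30% filter, averaged probe sets of a gene or each alone, quantile normalization or median centring, no replicate block, trend and robust eBayes, leaving out each mouse, and 5 arrays (all but mouse 279's restored-labelled one). Centring on the median of all probe sets was added after seeing the data.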

Additional observations from a re-analysis of the deposited data

How the results depend on the processing

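With 3 mice, differences of the size seen here lie under what the fit could call. The number of all genes and of members past an adjusted p of 0.05 was 0 under each of the 15 alternatives. The block moved no call. With complete pairs, leaving out the block changes the standard errors but cannot change a difference. The members' median of -0.053 with no replicate block was therefore fixed in advance. Leaving out 1 mouse gave medians of -0.081 to -0.015 for all members, -0.090 to -0.023 for complex I, -0.11 to -0.045 for complex II, -0.10 to -0.043 for complex III, -0.026 to -0.00075 for complex IV and -0.078 to 0.011 for complex V. The share of members lower was 64.1% to 89.7%, with 0 to 1 members at an unadjusted p below 0.05. The lowest share was that without mouse 279, and the all-gene medians in mice 278 and 281 were 0.031 and 0.032. In the 5 arrays without its restored-labelled array the share was also 64.1%, and the medians were -0.026, -0.064, -0.040, 0.0042 and -0.0059 for complexes I to V. Centring on the median of all probe sets moved the all-gene median to -0.11 and the members to -0.16, with -0.17, -0.18, -0.18, -0.12 and -0.16 for complexes I to V, so that the members lay below all genes by a similar amount as before. The count at an unadjusted p below 0.05 was then 5 (Uqcrc2, Ndufv1, Cyc1, Ndufs5 and Cox7a1). It was 6 with trend and robust eBayes, 1 with no filter (Ndufa4l2) and 1 without mouse 281 (Cox7c). The share of all genes at that level under these settings is not given here, so these counts cannot be set against a background.

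Of 716 values of the 48 named members over the alternatives, 676 kept their direction and 40 turned, while 28 members never turned. The smallest limma adjusted p was 0.52. Part of the 676 could not have turned. Leaving out the block, trend and robust eBayes, no filter and a higher filter all leave the difference of a tested member unchanged. The 676 therefore overstate how stable the directions were. Why the 40 turned was not tested. Many that turned were near 0 or variable, but not all. Sdha (-0.055), Atp5b (-0.048), Atp5d (-0.05) and Atp5e (-0.073) differed in the main fit about as much as the median member (-0.053) or more. They turned when mouse 279 or its restored-labelled array was left out. Centred on the tested genes, Atp5g3 was -0.0075 and Cox6a1 -0.0043. Centred on all probe sets, Atp5g2 was -0.076, Atp5g3 -0.10, Cox6a1 -0.097, Cox6b1 -0.089, Ndufa4 -0.092 and Uqcrb -0.065. With the mean over probe sets, Atp5g1 was 0.12, Atp5g2 -0.11, Cox6a1 -0.016, Cox6b1 -0.023, Cox7a2l 0.0084 and Uqcrb -0.0045. Leaving out 1 mouse, the ranges were -0.11 to 0.011 for Atp5d, -0.13 to 0.015 for Atp5e, -0.095 to 0.017 for Atp5g1, -0.016 to 0.013 for Atp5h, -0.012 to 0.030 for Atp5g3, -0.085 to 0.64 for Cox6a2, -0.00089 to 0.040 for Cox6b1, -0.12 to 0.083 for Cox6b2, -0.021 to 0.018 for Cox7a2l, -1.01 to 0.15 for Cox7c, -0.064 to 0.048 for Cox8a, -0.017 to 0.036 for Ndufa4, -0.039 to 0.35 for Ndufb1 and -0.033 to 0.0055 for Ndufb11. In the 5 arrays, Atp5b was 0.005, Atp5d 0.018, Atp5g1 0.011, Atp5h 0.021, Cox6a2 -0.18, Cox6b2 0.052, Cox7a2l 0.022, Cox8a 0.036, Ndufb11 0.003, Sdha 0.020 and Uqcrc1 0.012.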
